A study of Mus musculus with 9 samples.

Results

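The transcripts described here are those of 10 genes of the NRF2 pathway, chosen by symbol from 54532 genes in the expression table of the series. They are the transcription factor NRF2 (Nfe2l2), its inhibitor Keap1, the KEAP1-binding adaptor Sqstm1, and the antioxidant genes Gclc, Gclm, Txnrd1, Srxn1, Nqo1, Hmox1 and Osgin1. RNA came from primary mouse hepatocytes on the C57BL/6 background, in 9 libraries that form 3 groups of 3. Every mouse carried floxed COX-2 alleles (COX-2fl/fl). The WT groups lacked Alb-Cre, and the CKO group carried it, so that Cre driven by the albumin promoter deletes COX-2 in hepatocytes. All cells were held in 1% serum for 2 hours, and then WT cells received vehicle (WT DMSO) or tunicamycin at 6 μmol/L (WT Tu), and CKO cells received tunicamycin (CKO Tu), each for 24 hours. Knockout cells with vehicle were not analysed here, so the effect of tunicamycin in knockout cells cannot be measured. The labels describe male mice, give no age, and do not say whether the 3 libraries of each group had separate donors, so p-values measure only the spread between these libraries.

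NRF2 is a transcription factor that KEAP1 holds in the cytoplasm and hands to a ubiquitin ligase for destruction. Oxidants and electrophiles modify KEAP1, and the p62 protein encoded by Sqstm1 can sequester it. NRF2 then enters the nucleus, pairs with a small MAF protein and binds antioxidant response elements in the genes for glutathione synthesis, thioredoxin recycling, quinone reduction and haem breakdown. In liver this programme defends hepatocytes that handle drugs and other reactive compounds. Tunicamycin blocks protein N-glycosylation and loads the endoplasmic reticulum with unfolded proteins, and the stress kinase PERK is known to act on NRF2.

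The core of the antioxidant response element, TGACNNNGC, was sought on both strands of RefSeq promoter windows (GRCm38.p6) that run from 250 bases before to 50 bases after a start site. The sequences are shown because this core is the letter pattern that NRF2 and small MAF proteins are known to bind. Of the 10 genes, 8 matched the table, with 10 windows in all, 3 of them for Txnrd1. The core was present in 4 of the 10 windows, beside 12.4% of all 32851 windows. Capitals mark the core, which reads GCNNNGTCA where the match lies on the opposite strand:
Nfe2l2, chr2:75704879-75704913, minus strand: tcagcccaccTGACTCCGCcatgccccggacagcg
Gclm, chr3:122245407-122245447, plus strand: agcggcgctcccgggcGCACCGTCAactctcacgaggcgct
Txnrd1, chr10:82859098-82859138, plus strand: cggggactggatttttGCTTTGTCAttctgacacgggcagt
Srxn1, chr2:152105542-152105570, plus strand: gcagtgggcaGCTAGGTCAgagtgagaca

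The first 3 matches began 240, 134 and 92 bases before the start site, and the Srxn1 match began at base 29 after it. The Txnrd1 match is in 1 of its 3 windows. A composite site of ATF and C/EBP factors (TGATGNAA) was in 0 of the 10 windows, beside 3.97% of all windows. The longer endoplasmic reticulum stress response element was also in 0, beside 0.119% of all windows. These matches are descriptions of short windows and not measured binding sites.

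Libraries held between 14897358 and 16001484 recovered fragments. The labels and the sex-linked transcripts disagreed. Xist, which is transcribed from the inactive X chromosome of female cells, had 20659 to 33657 fragments in each WT library but 0, 3 and 0 in CKO Tu. Uty, Kdm5d, Eif2s3y and Ddx3y, all Y-linked, showed the reverse, with a sum of 0 in the WT cells and of 3486 to 3633 fragments per CKO Tu library. Genotype and sex therefore cannot be told apart in any comparison of CKO Tu with a WT group, whereas WT Tu and WT DMSO shared the female pattern. Ptgs2, the gene for COX-2, was counted 0, 13 and 8 times in WT DMSO, against 8, 5 and 5 in WT Tu and against 1, 1 and 2 in CKO Tu, which is too few to check the deletion closely. WT Tu replicate 1 was an unusual library, at -36.6 on the second principal component where its 2 companions were at -19.6, and with the highest mitochondrial share of fragments, 6.87%. The 10 genes together took 1.94% to 2.05% of the fragments in WT DMSO, 1.42% to 1.57% in WT Tu and 1.17% to 1.23% in CKO Tu. CKO Tu replicate 1 was the highest of its group for 9 of the 10 genes, beside 32.0% of all genes tested, and by more than 1.2-fold for 0 of the 10.

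Hepatocyte markers dominated the marker lists, with levels in FPKM (fragments per kilobase of gene, scaled to library depth). The 10 markers summed to 16293.9 to 18053.9 FPKM in WT DMSO, 16167.3 to 17534.9 in WT Tu and 14321.4 to 15277.5 in CKO Tu. The 9 endothelial markers summed to 10.4 to 11.4 FPKM in WT DMSO, 3.99 to 5.43 in WT Tu and 3.07 to 3.46 in CKO Tu. The 13 Kupffer cell and macrophage markers summed to 75.4 to 93.2 FPKM in WT DMSO, 96.9 to 115.0 in WT Tu and 92.7 to 106.9 in CKO Tu, nearly all of it Cd68. Without Cd68, which was set aside after its values were seen, the other 12 summed to 2.44 to 3.38, 0.411 to 0.751 and 0.411 to 0.641 FPKM. Of the 13 markers, 1, 5 and 9 had 0 fragments in all 3 libraries of WT DMSO, WT Tu and CKO Tu respectively. In WT DMSO, Lyz2 had 25, 36 and 33 fragments and Mpeg1 29, 53 and 43. The 5 cholangiocyte markers summed to 22.7 to 25.9 FPKM in WT DMSO, 22.8 to 24.3 in WT Tu and 34.3 to 38.3 in CKO Tu. Most of it was Spp1 and Sox9, at 27.2 and 8.25 FPKM on average in CKO Tu and 16.7 and 5.57 in WT Tu. Krt19, Krt7 and Epcam averaged 0.487, 0.00914 and 0.359 FPKM in CKO Tu and 0.474, 0.0128 and 0.722 in WT Tu. The 9 stellate cell markers summed to 5.45 to 6.6 FPKM in WT DMSO, 5.08 to 5.87 in WT Tu and 6.52 to 7.25 in CKO Tu, where Reln was at 1.9 ± 0.257 FPKM, 15.7 times its WT Tu mean (SD, n = 3). Reln was the only marker of this list with a higher mean in CKO Tu than in WT Tu. Most of the sum was Ecm1, at 4.89 FPKM on average in CKO Tu and 4.96 in WT Tu. The 7 markers of lymphocytes and neutrophils summed to 1.43 to 1.76 FPKM in WT DMSO, 4.8 to 6.45 in WT Tu and 3.03 to 4.56 in CKO Tu, and most of it under tunicamycin was Camp, an antimicrobial peptide gene (0.738, 5.21 and 3.33 FPKM on average in the 3 groups). The part of these cell types in the results was not tested. In such bulk libraries fewer cells of a type and less RNA per cell cannot be told apart.

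Tunicamycin was compared with vehicle in WT cells to see what endoplasmic reticulum stress does to this pathway. None of the 10 transcripts rose. Osgin1, Gclc, Txnrd1, Keap1 and Gclm fell, and Nfe2l2, Sqstm1, Hmox1, Nqo1 and Srxn1 had lower means without passing the test (limma, adjusted p from 0.057 to 0.52). The 2 largest falls, in Osgin1 and Gclc, left 0.482 and 0.477 of the WT DMSO mean. As a check of the treatment, Hspa5, the gene for the stress-induced chaperone BiP, was at 576 ± 14.4 FPKM in WT DMSO and 5312 ± 395 FPKM in WT Tu (limma adjusted p = 1.8e-08; SD, n = 3). Of 11858 genes tested, 33.6% were called in either direction, 17.7% higher and 15.9% lower, so 5 of 10 lower stands beside 15.9%. A called log2 change of 1 or more in size was seen for 1 of the 10 genes, Osgin1, beside 3.17% of all genes. The count of 5 became 3 without WT DMSO replicate 1 or 3. Of 10 hepatocyte markers, 3 fell with the drug (Hnf4a to 0.572 of its WT DMSO mean, Apob and Ttr to 0.793 and 0.876) and 0 rose, and their part in these changes was not tested. The groups did not overlap for 6 of the 10 genes, beside 46.7% of all genes tested. The median change of the 10 genes was -0.22 on the log2 scale and that of all genes -0.002, while the median size of change regardless of sign was 0.22 for the 10 and 0.21 for all. Scaling to total fragments moved the median of all genes to -0.108 and the share of calls that were higher from 52.7% to 31.5%. Under that scaling Nfe2l2 (-0.36) and Sqstm1 (-0.26) also passed the test (limma adjusted p = 0.0061 and 0.005).

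CKO Tu against WT Tu contrasts genotypes under the drug, with the sex-linked difference described above. The pathway split. Hmox1, Gclc, Keap1 and Gclm were higher in CKO Tu by 1.46, 1.27, 0.47 and 0.40 on the log2 scale. Osgin1, Nqo1, Srxn1, Sqstm1 and Nfe2l2 were lower, by -1.32, -0.98, -0.89, -0.67 and -0.45. Txnrd1 was the 1 gene that did not pass the test. Thus 9 of 10 were called, beside 38.3% of all genes (18.7% higher and 19.6% lower). No overlap between groups was seen for 9 genes too, beside 51.2% of all genes. For 3 genes, Hmox1, Gclc and Osgin1, the log2 change was 1 or more in size, beside 3.69% of all genes. The median size of change regardless of sign was 0.78 for the 10 genes and 0.23 for all genes tested. Of 10 hepatocyte markers, 7 were higher and 2 lower in CKO Tu. Among the higher, Tat and Hnf4a were at 108.6 ± 14.2 and 19.8 ± 1.25 FPKM against 19.5 ± 3.08 and 6.43 ± 0.779 FPKM in WT Tu (SD, n = 3). The lower were Alb and Ass1, at 10275.9 ± 287.5 and 103.4 ± 4.06 FPKM against 14277.1 ± 744.9 and 141.5 ± 27.3 FPKM in WT Tu (SD, n = 3). The part of these markers in the differences of the 10 genes was not tested. The stress marker Hspa5 was at 4862 ± 153 FPKM in CKO Tu and 5312 ± 395 FPKM in WT Tu (limma adjusted p = 0.17; SD, n = 3). Ddit3, also known to rise with tunicamycin, was lower in CKO Tu. It was at 331.7 ± 42.1 FPKM against 487.1 ± 26.6 FPKM in WT Tu (SD, n = 3, limma adjusted p = 0.017).

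CKO Tu was also set beside WT DMSO, which differs from it in treatment, genotype and sex-linked transcripts at once. Osgin1, Nqo1, Srxn1, Sqstm1, Nfe2l2 and Txnrd1 were lower and Hmox1 and Gclm higher in CKO Tu, so 8 of 10 were called, beside 49.5% of all genes (25.3% higher and 24.2% lower). No overlap was seen for 8 genes, beside 63.0% of all genes, and 3 genes changed by 1 or more on the log2 scale (Osgin1, Nqo1 and Hmox1), beside 7.23%. Of the 8 calls 25.0% were higher, and 14.3% under upper-quartile, quantile or total-fragment scaling, where Gclm did not pass. The 3 comparisons share groups, so their values are not independent of each other.

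**Figure D1:**
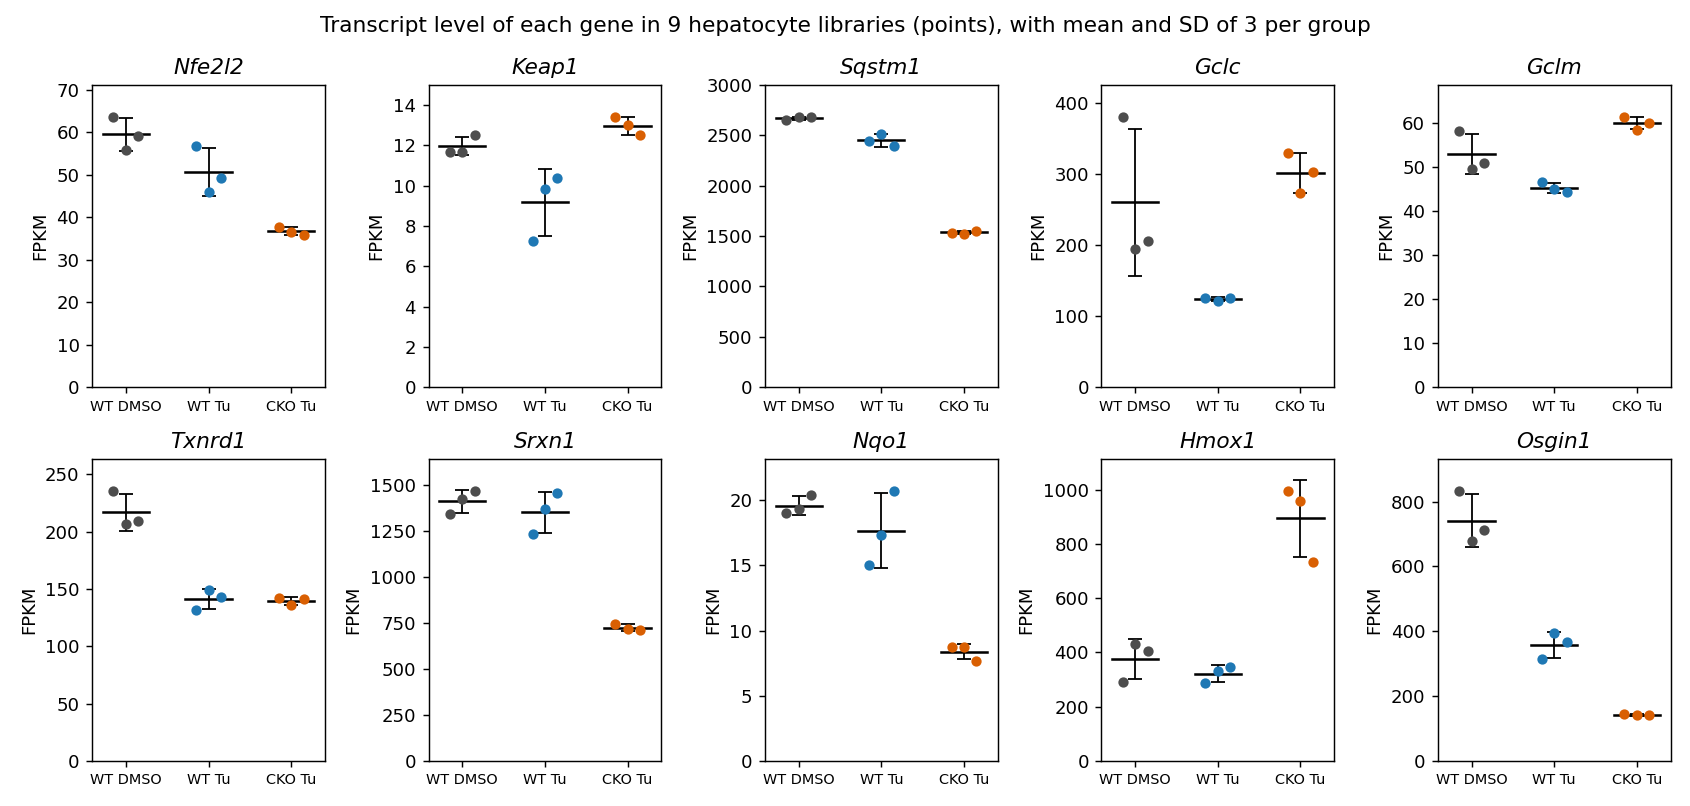
FPKM of the 10 genes (y axes, starting at 0, each gene with its own scale) in WT DMSO, WT Tu and CKO Tu libraries (x axes). Points are libraries, horizontal bars group means and vertical bars SD of 3. The CKO Tu points lie above every WT point for Hmox1 and Gclm and below every WT point for Nfe2l2, Sqstm1, Srxn1, Nqo1 and Osgin1, and WT DMSO replicate 1 lies apart for Gclc at 380.3 FPKM.

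**Figure D2:**
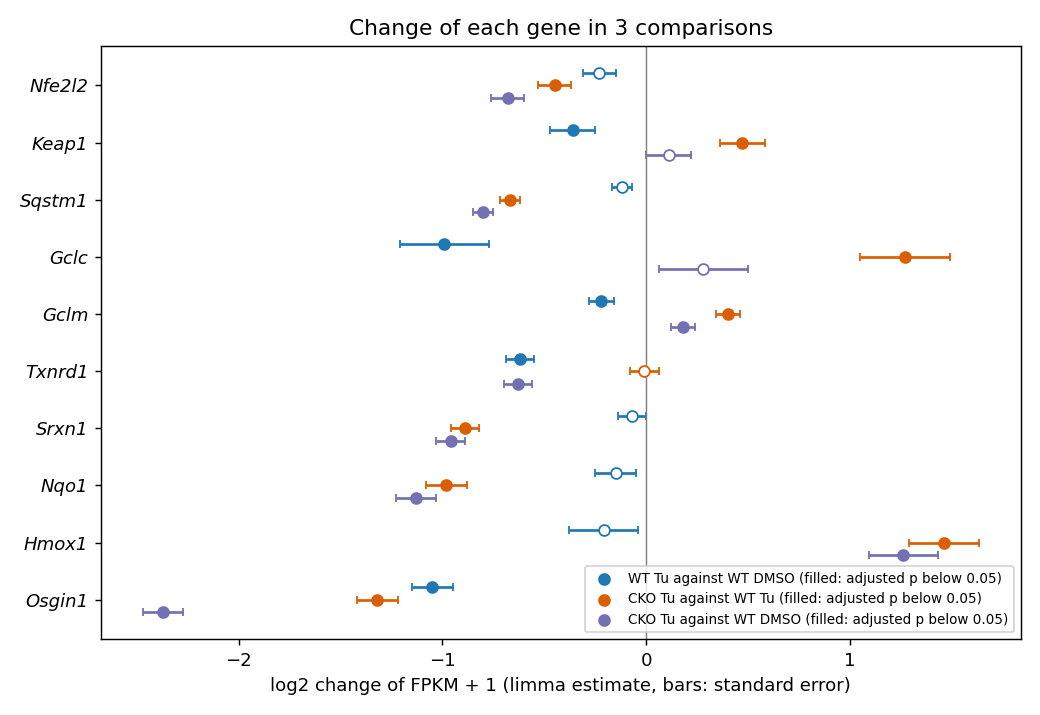
Change of the 10 genes on the log2 scale of FPKM + 1 (x axis) in the 3 comparisons, with standard errors from limma. Filled points passed an adjusted p of 0.05. WT Tu against WT DMSO lies at or left of -0.07 for all 10 genes, while CKO Tu against WT Tu runs from -1.32 (Osgin1) to 1.46 (Hmox1).

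Of the regulators, Nfe2l2 (ENSMUSG00000015839, chromosome 2, 75675513 to 75704641, minus strand, mm10) encodes NRF2 itself. Its level was 63.5, 55.8 and 59.2 FPKM in the 3 WT DMSO libraries, against 56.8, 45.9 and 49.2 in WT Tu and against 37.7, 36.4 and 35.9 in CKO Tu. WT DMSO and WT Tu overlapped, because WT Tu replicate 1 was above WT DMSO replicate 2, and every CKO Tu library was below every WT library. The change from WT DMSO to WT Tu was -0.23 ± 0.08 on the log2 scale (SE; limma adjusted p = 0.057). It passed the threshold in 8 of 18 alternatives and missed it in 10. Among the 8 were voom on the fragments (-0.24, adjusted p = 0.028) and leaving out WT Tu replicate 1 (-0.31, limma adjusted p = 0.006). CKO Tu was below WT Tu by -0.45 ± 0.08 (SE; limma adjusted p = 0.0028) and below WT DMSO by -0.68 ± 0.08 (SE; limma adjusted p = 0.00016).

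Keap1 (ENSMUSG00000003308, chromosome 9, 21229730 to 21239361, minus strand), the inhibitor that senses electrophiles, was the least abundant of the 10 genes per length in the 2 WT groups. It stood at 11.7, 11.7 and 12.5 FPKM in WT DMSO, against 7.28, 9.83 and 10.4 in WT Tu and against 13.4, 13 and 12.5 in CKO Tu. All WT Tu libraries were the lowest, and WT Tu replicate 1 was the lowest of them. Keap1 fell with tunicamycin by 0.36 ± 0.11 on the log2 scale (SE; limma adjusted p = 0.033), which missed the threshold on leaving out WT DMSO replicate 1, 2 or 3 (limma adjusted p = 0.067, 0.069 and 0.1) and with a trend on GC content removed (-0.17, adjusted p = 0.29). CKO Tu was higher than WT Tu by 0.47 ± 0.11 (SE; limma adjusted p = 0.0099), or by 0.33 if WT Tu replicate 1 is left out (adjusted p = 0.0028). CKO Tu and WT DMSO differed by 0.11 ± 0.11 (SE; limma adjusted p = 0.46). The antisense gene Gm16754, which overlaps Keap1, collected 35, 30 and 108 fragments over WT DMSO, WT Tu and CKO Tu respectively, against at least 486 Keap1 fragments in each library, and the strand setting of the counting was not given in the sources used here.

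Sqstm1 (ENSMUSG00000015837, chromosome 11, 50199366 to 50210827, minus strand) encodes p62, a receptor that carries ubiquitinated cargo to autophagosomes and binds KEAP1. It is both a regulator and a target of NRF2. It was the most abundant of the 10 transcripts and had rank 14, 17 and 26 by mean FPKM among all genes in WT DMSO, WT Tu and CKO Tu. Levels were 2650.0, 2679 and 2680.1 FPKM in WT DMSO, against 2445, 2518 and 2392 in WT Tu and against 1535, 1520.0 and 1553 in CKO Tu. The 3 groups did not overlap and descended in that order. The step from WT DMSO to WT Tu was small, -0.12 ± 0.05 on the log2 scale (SE; limma adjusted p = 0.084). The step from WT Tu to CKO Tu was -0.67 ± 0.05 (SE; limma adjusted p = 2.1e-05), and CKO Tu held 0.575 of the WT DMSO mean (limma adjusted p = 3.1e-06).

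The enzyme that limits glutathione synthesis, glutamate-cysteine ligase, has a catalytic subunit encoded by Gclc (ENSMUSG00000032350, chromosome 9, 77754535 to 77794485, plus strand) and a modifier subunit encoded by Gclm (ENSMUSG00000028124, chromosome 3, 122245557 to 122270732, plus strand). Gclc was at 380.3, 195.3 and 205.6 FPKM in WT DMSO, against 125.6, 121.0 and 126.3 in WT Tu and against 329.9, 274.0 and 302.7 in CKO Tu. WT Tu was lowest in all 3 libraries with little spread, and WT DMSO replicate 1 was far above the rest of its group. Gclc fell with tunicamycin by 0.99 ± 0.22 on the log2 scale (SE; limma adjusted p = 0.0082), and by 0.68 without WT DMSO replicate 1 (adjusted p = 0.00071). It was higher in CKO Tu than in WT Tu by 1.27 ± 0.22 (SE; limma adjusted p = 0.0021), a 2.43-fold ratio of means. CKO Tu and WT DMSO overlapped, with a difference of 0.28 ± 0.22 (SE; limma adjusted p = 0.32), which became 0.59 without WT DMSO replicate 1 (adjusted p = 0.00074).

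Gclm moved the same way over a smaller range. It was at 58.2, 49.6 and 51.0 FPKM in WT DMSO, against 46.6, 44.9 and 44.4 in WT Tu and against 61.3, 58.5 and 60.1 in CKO Tu. WT Tu was again the lowest group and CKO Tu the highest, with no overlap. The fall with tunicamycin was 0.22 ± 0.06 on the log2 scale (SE; limma adjusted p = 0.032) and missed the threshold on leaving out WT DMSO replicate 1 or 3 or WT Tu replicate 2 or 3 (limma adjusted p = 0.069, 0.053, 0.073 and 0.079). CKO Tu was above WT Tu by 0.40 ± 0.06 (SE; limma adjusted p = 0.0016). CKO Tu was above WT DMSO by 0.18 ± 0.06 (SE; limma adjusted p = 0.044), which did not pass in 11 of 18 alternatives, among them on leaving out WT DMSO replicate 2 or 3 (limma adjusted p = 0.15 and 0.14) or CKO Tu replicate 1, 2 or 3 (limma adjusted p = 0.13, 0.076 and 0.1).

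Of the thioredoxin branch, Txnrd1 (ENSMUSG00000020250, chromosome 10, 82833951 to 82897712, plus strand) encodes the cytosolic reductase that recharges thioredoxin with NADPH. Its level was 235.3, 206.3 and 208.9 FPKM in WT DMSO, against 131.5, 148.9 and 142.7 in WT Tu and against 141.6, 135.7 and 141.4 in CKO Tu. Both tunicamycin groups were below WT DMSO and overlapped each other. Txnrd1 fell in WT cells by 0.62 ± 0.07 on the log2 scale (SE; limma adjusted p = 0.00021). CKO Tu and WT Tu differed by -0.01 ± 0.07 (SE; limma adjusted p = 0.9), and the sign changed with the scaling. The gene Eid3 lies within Txnrd1 on the same strand and had 392, 190 and 245 fragments in the 3 groups, against at least 13258 Txnrd1 fragments in each library.

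Srxn1 (ENSMUSG00000032802, chromosome 2, 152105516 to 152111376, plus strand) encodes sulfiredoxin, which repairs peroxiredoxins that peroxide has overoxidised. It was at 1341, 1425 and 1466 FPKM in WT DMSO, against 1229.9, 1368 and 1453 in WT Tu and against 745, 715 and 712 in CKO Tu. The 2 WT groups overlapped, and all CKO Tu libraries lay far below them. With tunicamycin the change was -0.07 ± 0.07 on the log2 scale (SE; limma adjusted p = 0.52), a difference whose sign was not stable (0.02 with the GC trend removed and 0.00 without WT Tu replicate 1), and which passed at -0.34 under quantile normalization (adjusted p = 0.0017). CKO Tu was below WT Tu by -0.89 ± 0.07 (SE; limma adjusted p = 3.7e-05) and at 0.513 of the WT DMSO mean (limma adjusted p = 9.2e-06).

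Nqo1 (ENSMUSG00000003849, chromosome 8, 107388225 to 107403206, minus strand) encodes the quinone reductase often used as a readout of NRF2. It was at 19.0, 19.3 and 20.4 FPKM in WT DMSO, against 15, 17.3 and 20.7 in WT Tu and against 8.76, 8.72 and 7.69 in CKO Tu. The WT groups overlapped and the CKO Tu libraries were the lowest 3. The difference with tunicamycin was -0.15 ± 0.10 on the log2 scale (SE; limma adjusted p = 0.3), and leaving out WT Tu replicate 3 took it past the threshold (-0.27, adjusted p = 0.046). CKO Tu held 0.475 of the WT Tu mean, a difference of -0.98 ± 0.10 (SE; limma adjusted p = 0.00019), and 0.429 of the WT DMSO mean (limma adjusted p = 3.4e-05).

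Hmox1 (ENSMUSG00000005413, chromosome 8, 75093621 to 75100589, plus strand) encodes haem oxygenase 1, which opens haem to biliverdin, iron and carbon monoxide and answers to NRF2, BACH1 and other factors. Its level was 291.4, 430.8 and 406.7 FPKM in WT DMSO, against 287.6, 330.0 and 348.2 in WT Tu and against 995.7, 957.2 and 733.4 in CKO Tu. The WT groups overlapped, and even the lowest CKO Tu library was above all WT libraries. The change with tunicamycin was -0.21 ± 0.17 on the log2 scale (SE; limma adjusted p = 0.37). CKO Tu was above WT Tu by 1.46 ± 0.17 (SE; limma adjusted p = 0.00025), 2.78 times its mean, and was 2.38 times the WT DMSO mean (limma adjusted p = 0.00028). Macrophages are another known source of this transcript. The 13 Kupffer cell and macrophage markers summed to 92.7 to 106.9 FPKM in CKO Tu and 96.9 to 115.0 FPKM in WT Tu, of which Cd68 made up 92.2 to 106.3 and 96.5 to 114.3 FPKM. The other 12 summed to 0.411 to 0.641 FPKM in CKO Tu and 0.411 to 0.751 in WT Tu. The part of macrophages in the Hmox1 difference was not tested.

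Osgin1 (ENSMUSG00000074063, chromosome 8, 119434124 to 119446256, plus strand) encodes an oxidative stress induced growth inhibitor. It was at 832.4, 678.8 and 712.5 FPKM in WT DMSO, against 312.9, 393.3 and 365.4 in WT Tu and against 145.3, 140.1 and 140.5 in CKO Tu. The 3 groups were far apart and their means in the same order as for Sqstm1 and Nfe2l2. The fall with tunicamycin was 1.05 ± 0.10 on the log2 scale (SE; limma adjusted p = 7.8e-05), and CKO Tu was below WT Tu by -1.32 ± 0.10 (SE; limma adjusted p = 2.5e-05). Between WT DMSO and CKO Tu the level went down 5.22-fold, the 29th largest decrease among the genes tested in that comparison (limma adjusted p = 3e-07).

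Ratios within a library do not depend on how the library was scaled, and 3 pairs were compared in 3 comparisons, 9 tests in all. Gclm over Gclc was 0.153, 0.254 and 0.248 in WT DMSO, against 0.371, 0.371 and 0.352 in WT Tu and against 0.186, 0.214 and 0.199 in CKO Tu. The modifier subunit was thus most abundant relative to the catalytic subunit in WT Tu, which overlapped neither other group. Keap1 over Nfe2l2 was 0.184, 0.21 and 0.212 in WT DMSO, against 0.128, 0.214 and 0.212 in WT Tu and against 0.354, 0.357 and 0.348 in CKO Tu. The inhibitor was therefore higher relative to the factor in every CKO Tu library than in any WT library. Srxn1 over Txnrd1 was 5.7, 6.91 and 7.01 in WT DMSO, against 9.35, 9.19 and 10.2 in WT Tu and against 5.26, 5.27 and 5.04 in CKO Tu, with no overlap between groups. CKO Tu less WT Tu came to -0.87, 0.97 and -0.88 on the log2 scale for the 3 pairs, each with an exact two-sided permutation p = 0.1, the smallest that 3 against 3 allows (0.129 adjusted over the 9 tests). WT Tu less WT DMSO came to 0.78, -0.16 and 0.55 (exact two-sided permutation p = 0.1, 1 and 0.1), and for Keap1 over Nfe2l2 to 0.08 without WT Tu replicate 1. CKO Tu less WT DMSO came to -0.10, 0.81 and -0.33 (exact two-sided permutation p = 0.8, 0.1 and 0.1). The smallest p that this design allows does not reach 0.05.

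**Figure D3:**
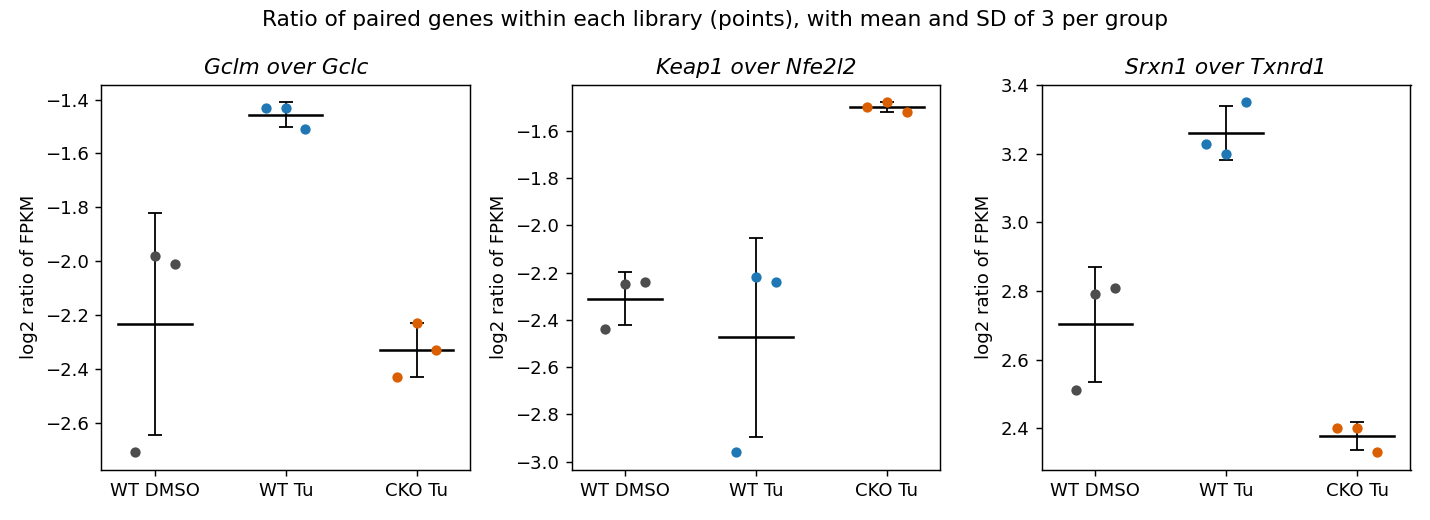
Log2 ratio of FPKM of Gclm over Gclc, Keap1 over Nfe2l2 and Srxn1 over Txnrd1 (y axes, not starting at 0) in WT DMSO, WT Tu and CKO Tu (x axes), where points are libraries, horizontal bars group means and vertical bars SD of 3. Mean ratios of Gclm over Gclc were -2.23, -1.46 and -2.33, and the outlying WT Tu point of Keap1 over Nfe2l2 is replicate 1 at -2.96.

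The wider pathway was read from 94 further genes in 7 lists by role, of which 85 passed the expression filter. With tunicamycin in WT cells 13 were higher, 21 lower and 51 did not pass, with a median change of -0.07 on the log2 scale, beside 17.7% higher and 15.9% lower over all genes tested. The calls were 38.2% higher, and 12.2% higher under scaling to total fragments and 22.9% under quantile normalization. Between CKO Tu and WT Tu, 21 were higher, 27 lower and 37 did not pass, with a median of -0.06, and under scaling to total fragments the split turned over to 25 higher and 22 lower. These 48 calls stand beside 18.7% higher and 19.6% lower over all genes tested. Medians over all genes were -0.002 in both comparisons. The 34 calls with tunicamycin became 22 without WT DMSO replicate 3. WT DMSO replicate 1 was the highest of its group for 55.3% of these 85 genes, beside 41.2% of all genes tested. Glutathione transferase genes Gsta1 and Gsta2, and Gstp1 and Gstp2, are close copies whose reads could have been split between them.

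Of 13 tested genes for NRF2 regulators and partners, 6 rose with tunicamycin, 0 fell and 7 did not pass, beside 17.7% of all genes higher. The 6 became 4 without WT DMSO replicate 3. Syvn1, a ubiquitin ligase of the endoplasmic reticulum that is known to target NRF2 as well as misfolded proteins, rose from 14.2 ± 0.867 to 103.8 ± 3.08 FPKM (limma adjusted p = 5.6e-08; SD, n = 3). Mafk, a small MAF partner, rose from 46.2 ± 4.10 to 91.4 ± 5.59 FPKM (limma adjusted p = 2.3e-05; SD, n = 3), and the kinase gene Gsk3b rose by 0.58 ± 0.06 on the log2 scale (SE). With CKO Tu set against WT Tu, 4 were higher, 4 lower and 5 did not pass, beside 38.3% of all genes called. Bach1, the repressor that competes with NRF2 for its sites, was at 49.8 ± 4.91 FPKM in CKO Tu and 25.2 ± 2.74 FPKM in WT Tu (limma adjusted p = 9.5e-05; SD, n = 3). Mafk and Maff were lower in CKO Tu, by -0.72 ± 0.07 and -0.57 ± 0.11 on the log2 scale (SE).

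The pentose phosphate pathway supplies NADPH, which glutathione and thioredoxin reductases use. Of 7 genes of NADPH supply, 5 fell with tunicamycin (G6pdx, Pgd, Pgls, Taldo1 and Tkt), 1 rose (Idh1) and 1 did not pass, with a median of -0.33 on the log2 scale, beside 15.9% of all genes lower. WT DMSO replicate 1 was the highest WT DMSO library for all 7 genes, for example G6pdx at 18.4 FPKM against 14.4 and 13.9. The 5 that fell became 4 without WT DMSO replicate 1 or 3 and 3 without WT Tu replicate 1. Taldo1 fell by 0.48 ± 0.08 and G6pdx by 0.40 ± 0.09, and Idh1 rose by 0.42 ± 0.11 (SE), which missed the threshold on leaving out WT DMSO replicate 2 or 3 (limma adjusted p = 0.054 and 0.056) and under total-fragment scaling (0.30, adjusted p = 0.054). For CKO Tu less WT Tu, 2 were higher, 1 lower and 4 did not pass, beside 18.7% and 19.6% of all genes. Taldo1 was lower by -0.50 ± 0.08, and Idh1 and G6pdx were higher by 0.44 ± 0.11 and 0.31 ± 0.09 (SE), the latter missing the threshold on leaving out WT Tu replicate 2 or 3 or any of CKO Tu replicates 1, 2 and 3 (limma adjusted p = 0.052, 0.073, 0.084, 0.068 and 0.065).

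Of 18 tested genes for quinone, carbonyl and haem detoxification and export, 8 fell with tunicamycin, 2 rose and 8 did not pass, beside 15.9% of all genes lower and 17.7% higher. The 8 that fell became 6 without WT DMSO replicate 1 or 3, and the 2 that rose became 0 without WT DMSO replicate 3 or WT Tu replicate 1. Aox1, an aldehyde oxidase, fell from 4.54 ± 0.570 to 1.76 ± 0.161 FPKM and Blvra, a biliverdin reductase, from 4.96 ± 0.301 to 2.2 ± 0.185 FPKM (limma adjusted p = 0.00018 and 7.5e-05; SD, n = 3). Abcc3, an export pump for conjugates, fell by 0.67 ± 0.07 on the log2 scale (SE). Comparing CKO Tu with WT Tu, 5 were higher, 7 lower and 6 did not pass, beside 18.7% and 19.6% of all genes. The largest differences were lower levels of the export pump Abcc4 (-1.60 ± 0.09), the aldehyde dehydrogenase Aldh3a2 (-1.25 ± 0.07) and the aldo-keto reductase Akr1b8 (-1.16 ± 0.20; SE). The iron store genes Fth1 and Ftl1, singled out after their values were seen because haem oxygenase releases iron, were at 6860 ± 116 and 1757 ± 40.6 FPKM in CKO Tu against 12433 ± 388 and 2415 ± 399 FPKM in WT Tu (limma adjusted p = 1.4e-05 and 0.012; SD, n = 3). The biliverdin reductase genes Blvra and Blvrb went the other way, higher in CKO Tu by 0.41 ± 0.08 and 0.42 ± 0.12 (SE; limma adjusted p = 0.0048 and 0.027). Hmox2 and Slc48a1 did not pass.

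Glutathione synthesis and recycling gave 3 lower, 1 higher and 8 not passing of 12 tested genes with tunicamycin, a share near the 33.6% of all genes called. The 3 became 2 without WT DMSO replicate 3 or WT Tu replicate 1, and the 1 became 0 without WT DMSO replicate 3. Glrx, a glutaredoxin, fell from 9.15 ± 1.86 to 4.45 ± 0.447 FPKM (limma adjusted p = 0.0013; SD, n = 3), Gsr, the glutathione reductase, fell by 0.41 ± 0.09, and Ggct, a gamma-glutamyl cyclotransferase, by 0.29 ± 0.09 (SE). The Ggct result missed the threshold on leaving out WT DMSO replicate 2 or 3 or WT Tu replicate 1, 2 or 3 (limma adjusted p = 0.088, 0.13, 0.058, 0.072 and 0.09). In CKO Tu against WT Tu 4 were higher, 6 lower and 2 did not pass, beside 38.3% of all genes called. The peroxidase Gpx1 was at 328.8 ± 5.05 against 235.1 ± 9.57 FPKM (limma adjusted p = 0.00019; SD, n = 3), while Gpx3 and Gpx7, with means of 0.333 and 0.92 FPKM in CKO Tu and 1.51 and 2.52 FPKM in WT Tu, were lower by -0.91 ± 0.13 and -0.87 ± 0.12 on the log2 scale (SE).

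Of 19 tested glutathione transferase genes, 2 fell, 1 rose and 16 did not pass with tunicamycin, beside 33.6% of all genes called. Gsto1 rose by 0.42 ± 0.05, and Gstm4 and Mgst3 fell by 0.37 ± 0.08 and 0.39 ± 0.12 on the log2 scale (SE). The Mgst3 result missed the threshold on leaving out WT DMSO replicate 1, 2 or 3 or WT Tu replicate 1 or 3 (limma adjusted p = 0.088, 0.059, 0.067, 0.079 and 0.064). Between CKO Tu and WT Tu, 6 were lower, 1 higher and 12 did not pass, beside 38.3% of all genes called, with Gsta2, Gstk1 and Gstt1 lower by -1.23 ± 0.07, -0.78 ± 0.08 and -0.71 ± 0.11 (SE).

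In the thioredoxin and peroxiredoxin system, 2 of 13 tested genes rose with tunicamycin, 2 fell and 9 did not pass, a share close to the 33.6% of all genes called. Prdx4, the peroxiredoxin of the endoplasmic reticulum, and Txn2, the mitochondrial thioredoxin, rose by 0.43 ± 0.06 and 0.31 ± 0.07 on the log2 scale, and Txnrd2, the mitochondrial reductase, fell by 0.39 ± 0.11 (SE). Txn2 missed the threshold under quantile normalization and total-fragment scaling (limma adjusted p = 0.078 and 0.059). The Txnrd2 result missed the threshold on leaving out WT DMSO replicate 1 or 2 or WT Tu replicate 1 or 3 (limma adjusted p = 0.091, 0.068, 0.076 and 0.064). With CKO Tu set against WT Tu, 4 were higher, 3 lower and 6 did not pass, beside 38.3% of all genes called. Txnip, which binds and inhibits thioredoxin, was at 179.0 ± 18.1 FPKM in CKO Tu against 78.8 ± 14.9 FPKM in WT Tu (limma adjusted p = 0.0016; SD, n = 3), and Prdx1 and Txn2 were lower by -0.58 ± 0.13 and -0.53 ± 0.07 (SE). Among 3 tested genes for superoxide dismutases and catalase, 1 fell with tunicamycin and 2 did not pass, near the 33.6% of all genes called. The 1 was Sod2, which fell by 0.24 ± 0.06 (SE) and missed the threshold on leaving out WT DMSO replicate 3 (limma adjusted p = 0.057). For CKO Tu less WT Tu, 1 was higher and 2 did not pass, near the 38.3% of all genes called. That 1 was Cat, the gene for catalase, higher by 0.41 ± 0.08 (SE; limma adjusted p = 0.0036).

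**Figure D4:**
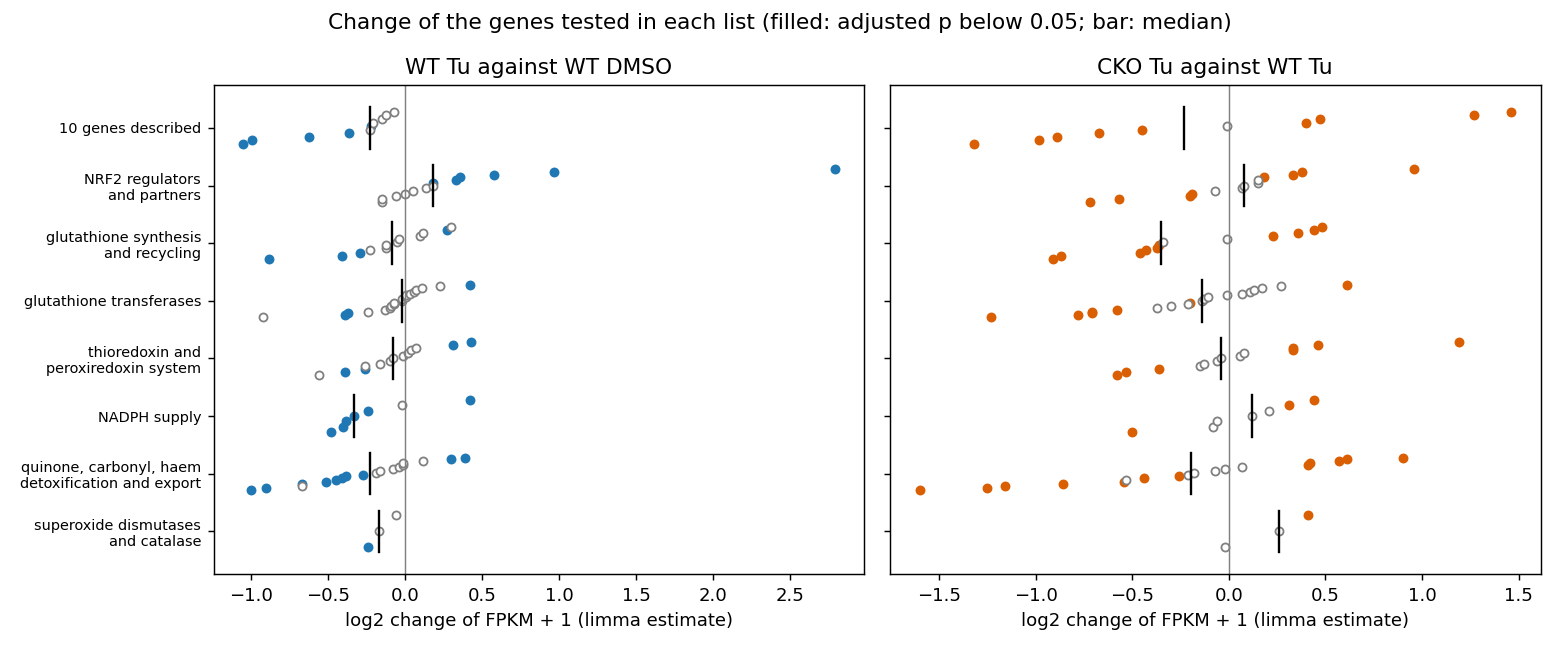
Change on the log2 scale of FPKM + 1 (x axes) of each tested gene in the 10 genes described and in 7 lists of the wider pathway (rows), for WT Tu against WT DMSO (left) and CKO Tu against WT Tu (right). Filled points passed an adjusted p of 0.05 and black bars are medians, which for NADPH supply lie at -0.33 on the left and 0.12 on the right. The rightmost point on the left is Syvn1 at 2.79.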

How the data were processed

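The deposited table gives FPKM, which the authors computed per gene. The submitters' processing notes name HISAT2 2.2.1, featureCounts 1.5.0-p3 and the mm10 build. Their annotation release, strand setting and scaling between libraries are not given in the sources used here. FPKM multiplied by gene length, and divided by a step size fitted to each library, gave whole fragments (tolerance 0.001) for 100.0% of values above 0. The deposited FPKM imply a scaling factor of 0.948 to 1.07 of each library's fragment total.

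Genes at 1 FPKM or more in 3 or more libraries (11858) were fitted as log2(FPKM + 1) with limma 3.58.1 in R 4.3.3: all 9 libraries, a mean per group, an intensity trend, two-sided tests, and Benjamini-Hochberg adjustment over all genes tested, called below 0.05. The pseudocount of 1 shrinks changes of low genes. Within-library ratios were compared by exact permutation (SciPy 1.17.1). With simulated fragments for WT Tu against WT DMSO (11545 genes run), a log2 change of 0.5 was called in the right direction in 30.0% of 50 genes and a change of 1 in 96.0% of 50. That simulation left 11345 genes unchanged and gave every gene the same dispersion. In the data 33.6% of genes were called and the spread differed by gene, so these shares do not measure the power there.

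All 10 genes are named, and from each wider list up to 3 called genes with the largest change in WT Tu against WT DMSO and in CKO Tu against WT Tu. The genes, lists and tests were chosen with earlier results of these data known. Alternatives were a pseudocount of 0.1, no filter or a filter at 5 FPKM, upper-quartile, quantile and total-fragment scaling, voom on the fragments, only the 2 groups compared, the replicate block, no intensity trend, library weights, a lowess correction for GC content (span 0.3; GENCODE M21 transcripts), and each library left out. Promoter windows came from RefSeq (GRCm38.p6). Hmox1 and Gclc had no window there.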

Additional observations from a re-analysis of the deposited data

How the results depend on the processing

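In CKO Tu against WT Tu, 9 of the 10 genes kept their direction and their call in all 18 alternatives, and Txnrd1, not called, changed sign in 5 (0.08 with quantile normalization, 0.04 with total-fragment scaling, 0.01 with the GC trend removed and without CKO Tu replicate 2, and 0.03 without WT Tu replicate 2; -0.06 to 0.03 with a library left out). In WT Tu against WT DMSO, Osgin1, Gclc and Txnrd1 kept theirs in all 18. Hmox1, not called, stayed not called and negative in all 18 (-0.38 to -0.10). The count of called genes there was 3 in place of 5 without the filter and with only the 2 groups compared, and 3 to 6 with a library left out. Srxn1 was 0.02 with the GC trend removed and 0.00 without WT Tu replicate 1 (-0.12 to 0.00 with a library left out). With a library left out the wider lists gave 22 to 35 calls against 34, and the Gclm over Gclc ratio of CKO Tu against WT DMSO was -0.33 to 0.03 against -0.10. Keap1 over Nfe2l2 in WT Tu against WT DMSO was -0.16 and -0.29 to 0.08 with a library left out. In CKO Tu against WT DMSO, 25.0% of the calls were higher, and 14.3% with each scaling or the GC trend removed, where Gclm did not pass. The causes of these shifts were not tested. Deviations from the group means in same-numbered libraries had correlations from -0.097 to 0.021. These values gave no sign of pairing, but with 3 libraries per group they cannot exclude a shared donor or day. The replicate block gave 6, 9 and 8 called genes in the 3 comparisons, against 5, 9 and 8.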
